A study of Mus musculus with 30 samples.

Results

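The zinc, manganese and cadmium transporters described here are 10 genes, chosen by symbol: the importers Slc39a4, Slc39a5, Slc39a8, Slc39a10 and Slc39a14, the exporters Slc30a1, Slc30a5, Slc30a7 and Slc30a10, and the proton-coupled metal importer Slc11a2. The choice was made with earlier results of these data known. They were taken from tables of 14259 genes at postnatal day (PND) 1 and PND21 and 13091 genes at PND42, and all 10 were present in every table. The 30 libraries are RNA-seq of livers of CD-1 mice (outbred), exposed during gestation to cadmium chloride (CdCl2) at 500 ppb or left as controls. The groups were 4 control and 4 exposed females at PND1, 3 and 3 females at PND21, and 4 and 4 of each sex at PND42. The labels give strain, tissue, age, sex and exposure, and state neither the route of exposure nor which animals were litter mates, so that the p-values below measure the spread between these samples only. For 4 PND42 control libraries (1 female, 3 male), called unnumbered here, the group is known but not the replicate number. In the female one the deposited name has the tag of PND21 control replicate 1, so its sample is uncertain. Libraries were compared for copies only within an age, where no 2 had more than 0.516% of genes at equal reads. That female library was therefore not compared gene by gene with the PND21 one. Mitochondrially encoded reads made up 7.76% of its reads and 18.3% of those of the PND21 library. Their reads summed over the genes listed were 28.7 M and 22.0 M.

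Cells take zinc into the cytosol through SLC39 (ZIP) proteins and move it out, or into vesicles and the Golgi, through SLC30 (ZnT) proteins. Cadmium has no transporter of its own and enters cells through carriers of zinc, manganese and iron, of which ZIP8 (Slc39a8), ZIP14 (Slc39a14) and DMT1 (Slc11a2) are the best known. In the liver ZIP14 also takes up manganese and non-transferrin iron and responds to inflammation, ZIP8 reclaims manganese from bile, ZnT10 (Slc30a10) exports manganese, and ZnT1 (Slc30a1) exports zinc under the zinc sensor MTF1. MTF1 binds metal response elements, short sequences shared with the metallothionein genes.

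The promoters of 3 members are shown with those letters marked: Slc39a8 and Slc30a1, which were among the genes that fell in exposed PND42 females, and Slc30a10, which held the most matches. RefSeq windows on build GRCm38.p6 were found for 7 of the 10 members, in 10 windows of 250 bases before a start; Slc39a4, Slc39a14 and Slc11a2 were not among them. Both strands were searched for TGCACNC and TGCGCNC, 2 spellings of the core of the metal response element, and matches are in capitals. The Slc30a1 window is printed up to the gene's start in GENCODE, which leaves 236 bases.
Slc39a8 (chr3:135825029-135825278, plus strand): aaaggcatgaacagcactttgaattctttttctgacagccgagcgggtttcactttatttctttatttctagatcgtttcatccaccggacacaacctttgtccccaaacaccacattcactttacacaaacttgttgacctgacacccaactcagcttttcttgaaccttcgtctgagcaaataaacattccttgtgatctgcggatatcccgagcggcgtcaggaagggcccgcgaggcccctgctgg
Slc30a1 (chr1:191906531-191906766, plus strand): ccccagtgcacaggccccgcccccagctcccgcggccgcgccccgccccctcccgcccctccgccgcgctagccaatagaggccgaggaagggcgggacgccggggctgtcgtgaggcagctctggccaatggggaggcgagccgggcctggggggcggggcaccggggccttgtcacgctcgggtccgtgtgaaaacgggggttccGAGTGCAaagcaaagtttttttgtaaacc
Slc30a10 (chr1:185454598-185454847, plus strand): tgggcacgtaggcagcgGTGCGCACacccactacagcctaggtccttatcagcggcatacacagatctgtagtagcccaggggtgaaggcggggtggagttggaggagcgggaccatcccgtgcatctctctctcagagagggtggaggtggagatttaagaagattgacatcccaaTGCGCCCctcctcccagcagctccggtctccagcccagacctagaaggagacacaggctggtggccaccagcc

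The window of Slc30a1 held 1 match, on the minus strand, whose upstream edge lay 43 bases before the RefSeq start. That of Slc30a10 held 3, of which 2 overlapped on opposite strands at 233 and 232 bases and the third lay at 73 bases before the start. The Slc39a8 window above held none, and a second Slc39a8 start, inside the annotated gene, had 1 match. Slc39a5 and Slc30a5 had 1 match each, and Slc30a7 and Slc39a10 had none. In all 5 of 10 windows held at least 1 match, against 21.4% of the 32851 mouse windows of that length, and 1.26% of those held at least 3. The windows of the metallothionein genes Mt1 and Mt2 held 1 and 3. The palindrome TTCNNNGAA, the core of STAT sites, was in 1 member window, a start of Slc39a10, and in 7.02% of all windows. A match is only a run of letters, and factor binding was not measured.

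Which transporters dominated control liver depended on age. Levels between genes were compared as normalised reads (reads divided by the authors' library size factor) per kb of exon, shown as mean ± SD. In PND1 controls the highest was Slc39a5, an importer of the basolateral membrane, at 1182 ± 277 (n = 4). Its range lay apart from that of the next gene, Slc30a10, at 363 ± 64.7, which in turn overlapped Slc39a14 at 296 ± 61.2. Slc30a1 (182 ± 44.8) and Slc39a4 (180.4 ± 19.5) overlapped each other, as did Slc30a5 (121 ± 6.87), Slc39a8 (117 ± 5.70) and Slc11a2 (114 ± 16.7). Slc30a7 and Slc39a10 were lowest, at 36.3 ± 5.32 and 28.9 ± 10.4.

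By PND21 the order had turned over: Slc39a14 was highest at 791 ± 97.7 (n = 3), followed by Slc39a4 at 395 ± 33.1, each apart from the next gene. Slc39a5, Slc30a10, Slc30a1, Slc30a5 and Slc11a2 followed with ranges that overlapped from one to the next. Slc39a14 made up 11.3% of the summed per-kb level of the 10 genes in PND1 controls, 39.7% in PND21 controls, 43.4% in PND42 control females and 36.8% in PND42 control males. At PND42, in a separately scaled table, Slc39a14 (949 ± 114 in females, n = 4) and Slc39a4 (337 ± 78.6) again had the highest means. In those females Slc39a4 overlapped the next gene, Slc30a1 (226 ± 22.4). In control males Slc39a14 (806 ± 218) overlapped Slc39a4 (651 ± 119), which lay apart from the next gene.

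**Figure D1:**
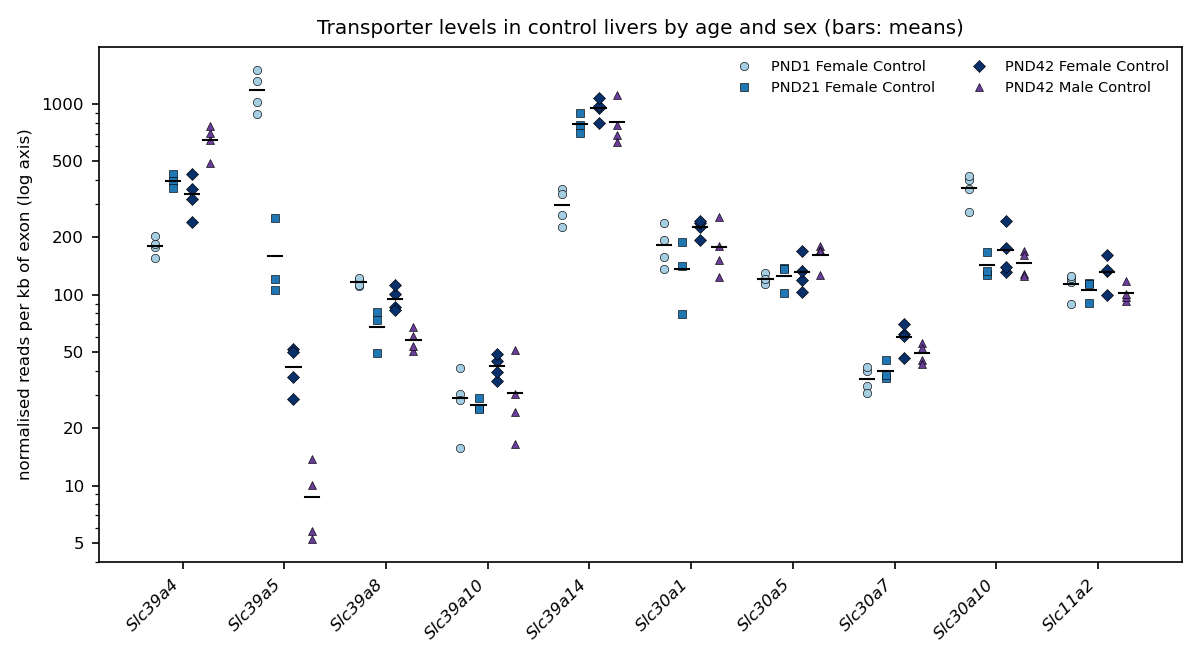
Normalised reads per kb of exon (log axis) of the 10 transporters in control libraries, 1 point per library, by age and sex, with bars at group means; PND42 was scaled separately from the younger ages. Slc39a5 falls from 1182 at PND1 to 160 at PND21, while Slc39a14 rises from 296 to 791.

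Between PND1 and PND21 controls 5 of the 10 transporters passed the test, against 52.9% of 14233 genes tested, and in all 5 the groups were apart, as in 55.3% of genes. The test here and below is limma on the log2 values, two-sided, with p-values adjusted over all genes tested and a threshold of 0.05. Slc39a14 rose 2.70-fold, from 3127 ± 646 to 8341 ± 1030 normalised reads (log2 1.43, SE 0.19, limma adjusted p = 0.000174). Slc39a4, the zinc importer whose loss causes acrodermatitis enteropathica in people, rose from 483, 554, 575 and 629 to 1328, 1227 and 1122 reads. Every PND21 library was above every PND1 library, and the log2 difference was 1.13 (SE 0.14, limma adjusted p = 0.000112).

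Slc39a5 had 1968, 2292, 3338 and 2924 reads in the PND1 controls and 268, 565 and 235 in the PND21 controls. It fell 7.80-fold, the largest difference of the 10 (log2 -2.96, SE 0.30, limma adjusted p = 3.52e-05). The manganese exporter Slc30a10 fell 2.52-fold, from 2116 ± 378 to 835 ± 129, and the importer Slc39a8 fell 1.75-fold, from 895 ± 43.7 to 523 ± 128. Slc30a1, Slc30a5, Slc30a7, Slc39a10 and Slc11a2 did not pass, with log2 differences from -0.46 (Slc30a1) to 0.15 (Slc30a7). Slc39a10 spread widely within PND1 controls, from 96.3 to 251.

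Scaling by total reads instead moved the median gene by -0.50 on the log2 scale, and genes called went from 3701 higher and 3826 lower to 1722 higher and 6587 lower. The 5 calls above kept their directions and passed, with Slc39a4 at 0.62, 1.12 above the median gene. Slc30a1, Slc30a5 and Slc11a2 then also passed as lower, at -0.97, -0.47 and -0.60. Among markers of other liver cells, 9 of 9 measured erythroid markers fell (median log2 -3.83), and 5 of 7 hepatocyte markers rose (median 1.08). In bulk tissue, fewer cells of a type and less RNA per cell cannot be told apart, and their part in the differences was not tested.

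In control mice at PND42, 3 transporters differed between the sexes, against 6.93% of 13091 genes. Slc39a4 was 1.95-fold higher in males, with 2007, 1517, 2185 and 2380 reads against 985, 1118, 1331 and 748 in females (log2 0.96, SE 0.21, limma adjusted p = 0.0109). Slc39a5 was lower in males, at 12.9, 11.7, 22.5 and 30.6 reads against 83.0, 111, 115 and 63.2 (log2 -2.27, SE 0.47, limma adjusted p = 0.00804). Slc39a8 was 1.64-fold lower in males, at 447 ± 58.3 against 732 ± 102 (limma adjusted p = 0.0321). In none of the 3 did the sexes overlap, as in 12.4% of genes. Other measures differed between the same libraries: Kupffer cell markers had lower means in males in 8 of 8, with 5 called (median log2 -0.98), and mitochondrial shares were 9.03% to 24.8% in male and 5.25% to 12.8% in female controls. Their part in the sex differences was not tested. Scaling by total reads moved the median gene by -0.38, and the calls over all genes went from 600 higher and 307 lower in males to 235 and 1875. Slc39a4 then missed the threshold (0.59, limma adjusted p = 0.0539), though it was 0.98 above the median gene.

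With exposure, transporters passed the test in PND42 females alone, where 6 of the 10 fell and none rose, against 21.4% of 13091 genes called lower and 18.9% called higher. The median log2 difference of the 10 was -0.64, against 0.00 over all genes. Since the 10 were chosen with earlier results of these data known, the counts and medians are descriptions and no test of the set. Those that fell were the importers Slc39a4, Slc39a8 and Slc11a2 and the exporters Slc30a1, Slc30a7 and Slc30a5. In 5 of them every exposed library lay below every control library, as in 23.5% of all genes.

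**Figure D2:**
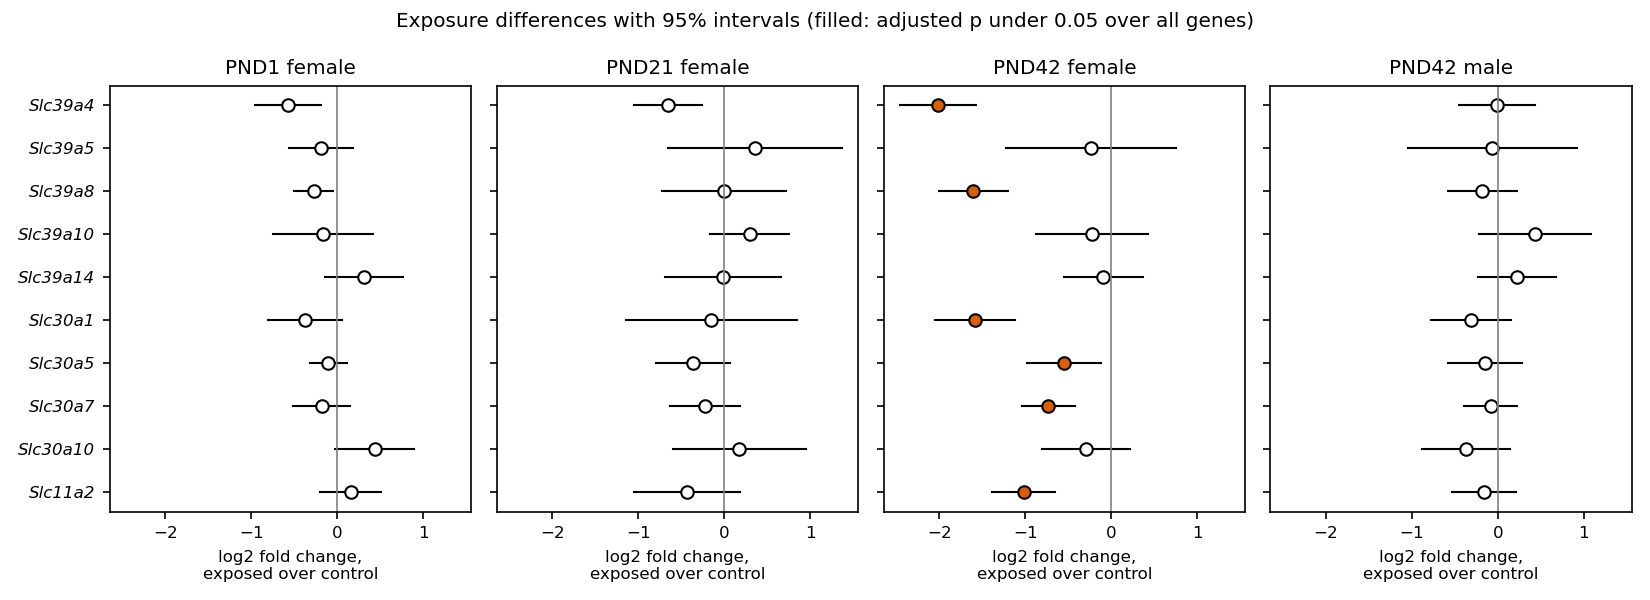
Log2 fold change of exposed over control (points) with 95% intervals (lines) for the 10 transporters in PND1, PND21 and PND42 females and PND42 males; filled points passed limma at the 0.05 threshold. Filled points occur only in PND42 females, from -2.01 for Slc39a4 to -0.55 for Slc30a5.

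Slc39a4 lies at chr15:76612383-76617384 on the minus strand, as annotated on build GRCm38 (mm10) in GENCODE. The control females had 985, 1118, 1331 and 748 normalised reads and the exposed females had 253, 192, 239 and 352. The highest exposed library was below the lowest control library, and the gene was 4.04-fold lower (log2 -2.01, SE 0.21, limma adjusted p = 1.03e-05). Of all genes tested, 1.21% had a lower log2 difference. With each library left out in turn and under the other settings it stayed between -2.17 and -1.88 and passed in 15 of 15.

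Slc39a8, at chr3:135825279-135888572 on the plus strand, had 640.3, 859, 771 and 659 reads in the control females. The exposed females had 235, 194, 259 and 274, again without overlap. It fell 3.04-fold (log2 -1.60, SE 0.19, limma adjusted p = 2.01e-05). Slc11a2, which encodes DMT1, had 631, 1024, 847 and 859.6 reads in controls and 389, 304, 472 and 503 in exposed females. Its groups did not overlap, and it fell 2.02-fold (log2 -1.01, SE 0.17, limma adjusted p = 0.000298).

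Among the exporters, Slc30a1, the zinc exporter of the plasma membrane at chr1:191906767-191913247, had 1249.5, 1283, 1183 and 1019 reads in the control females. The exposed females had 439, 405, 316 and 428 reads, and it fell 2.99-fold (log2 -1.58, SE 0.22, limma adjusted p = 6.15e-05). Slc30a7, which loads zinc into the early secretory pathway, fell 1.66-fold, from 667 ± 107 to 399 ± 32.5 (limma adjusted p = 0.000989). Neither gene's groups overlapped.

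Slc30a5, another secretory pathway zinc transporter, had overlapping groups: 755, 969, 872 and 1235 reads in controls and 550.2, 808, 542 and 713 in exposed females. Its log2 difference of -0.55 (SE 0.20, limma adjusted p = 0.0395) passed in only 7 of 15 other settings. Leaving out any of 5 libraries ended the call: control 3 (limma adjusted p = 0.0775), control 4 (0.0503), the unnumbered control (0.133), exposed 1 (0.107) or exposed 3 (0.116). So did scaling by total reads (0.111).

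The other 4 transporters did not pass. Slc39a14, the highest of the 10 per kb in PND42 females, had 8441, 11358, 10002 and 10250.2 reads in controls and 7599, 11533, 10673 and 8232 in exposed females. The ranges overlapped almost wholly, with a log2 difference of -0.09 and a 95% interval from -0.54 to 0.37. Slc30a10 differed by -0.29 (-0.80 to 0.22), Slc39a10 by -0.22 (-0.87 to 0.43) and Slc39a5 by -0.24 (-1.22 to 0.75). With the others lower, Slc39a14 made up 60.2% of the summed per-kb level of the 10 in exposed females, against 43.4% in control females.

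**Figure D3:**
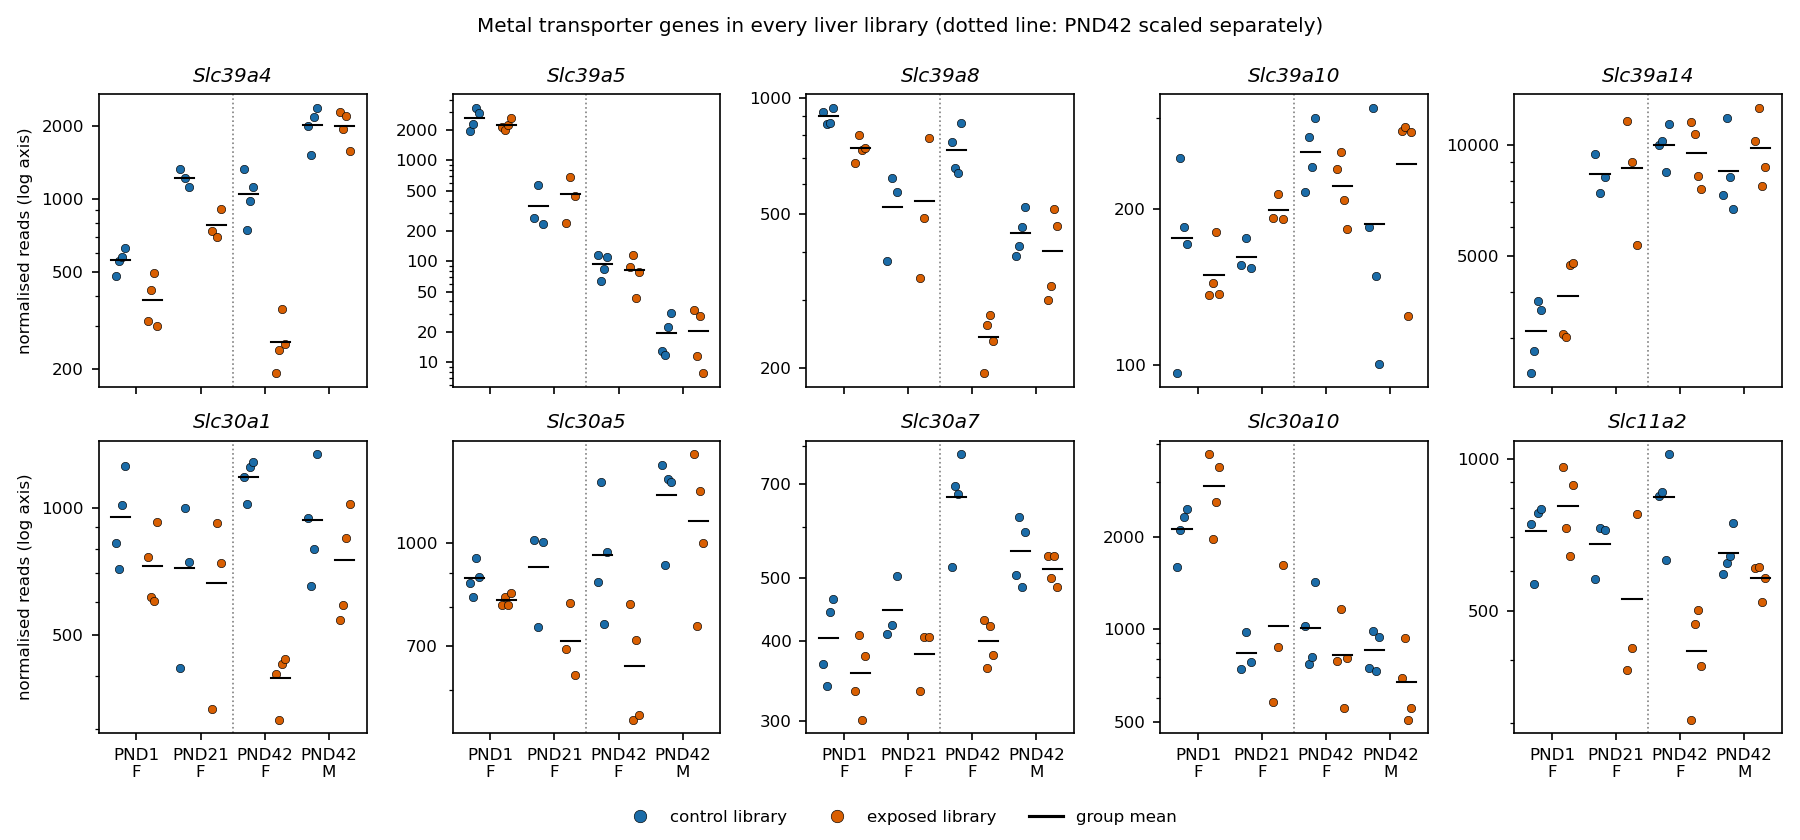
Normalised reads (log axis) of the 10 transporters in every library, with control libraries in blue, exposed in orange and group means as bars; the dotted line separates PND42, which was scaled apart. In PND42 females the exposed points of Slc39a4, Slc39a8, Slc30a1, Slc30a7 and Slc11a2 lie wholly below the controls, and in males no gene separates.

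The PND42 female libraries also differed in measures of their RNA. Mitochondrially encoded reads made up 22.2% to 35.5% of the reads in exposed females and 5.25% to 12.8% in controls, with means of 27.6% ± 6.29 and 8.49% ± 3.15 (SD, n = 4). The exact permutation test, two-sided, gave p = 0.0286, which is as low as 4 libraries against 4 can give, and 0.114 after adjustment over 12 such tests. The mean log2 level of the nuclear RNAs Malat1 and Neat1 was 15.65 ± 0.18 against 13.81 ± 0.59, and that of genes with over 300 kb of intron was 8.93 ± 0.16 against 7.46 ± 0.20, both without overlap. Of 7 measured hepatocyte markers 6 fell (median log2 -1.06), and their summed reads were 1.25 to 2.29 M reads against 2.90 to 3.98 M reads. Kupffer cell markers fell in 4 of 8, endothelial markers fell in 3 and rose in 1 of 8, cholangiocyte markers fell in 2 of 5 and stellate markers in 2 of 8. Of 12 exocrine pancreas markers only Cela1 was in the table, and it fell. Of 3 enterocyte markers measured, Apoa4 and Fabp2 fell; the liver expresses both. The part of these shifts in the transporter differences was not tested.

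The transporters stood in different relation to these measures. Over the 30 libraries, as deviations from their group means, Slc30a1 had a Pearson r of -0.82 with the level of the long genes. Slc39a8 had -0.50, Slc30a7 -0.47, Slc11a2 -0.40, Slc30a5 -0.29 and Slc39a4 0.03. With the mitochondrial share, in the same order from Slc30a1 to Slc39a4, r was -0.40, -0.27, 0.02, -0.17, -0.32 and -0.18. These are descriptions, since all measures in a library share its RNA. By mitochondrial share alone, some male libraries lay within the range of the exposed females. On the other measures none did: every exposed female was above every PND42 male, at 8.76 to 9.12 against 7.18 to 8.45 for the long genes and at 15.51 to 15.91 against 13.21 to 15.35 for Malat1 and Neat1. Exposed male replicate 2 and exposed female replicate 2 both had a share of 29.7%, with long genes at 8.45 and 8.83. That male had 1941 reads of Slc39a4 and that female 192. For Slc39a8 the same libraries had 326 and 194 reads, and for Slc30a1 588 and 405. Exposed male replicate 1, at 22.3% and 8.31, had 2279 reads of Slc39a4, 300.3 of Slc39a8 and 543 of Slc30a1. Exposed female replicate 4, at 22.2% and 8.76, had 352, 274 and 428. In both pairs the male had more reads of all 3 genes, and the female had the higher level of the long genes. Also within the mitochondrial range, 1 unnumbered male control, at 24.8% and 8.16, had 1517, 414 and 652 reads. In controls Slc39a4 was higher in males and Slc39a8 higher in females. Slc30a1 was at 934 ± 295 in male and 1184 ± 117 in female controls and did not pass. The pairs and that male control are single libraries, given as values with no test.

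**Figure D4:**
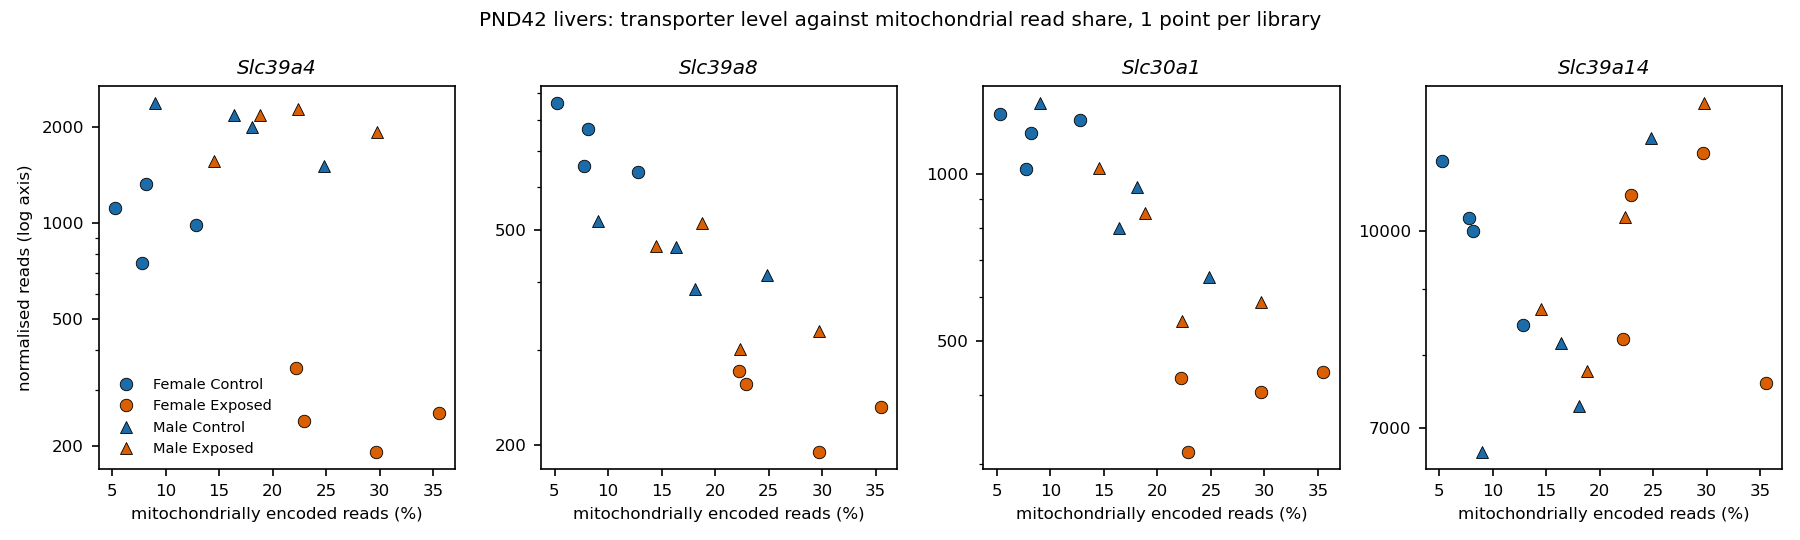
Normalised reads (log axis) of Slc39a4, Slc39a8, Slc30a1 and Slc39a14 against the percentage of mitochondrially encoded reads in the 16 PND42 libraries (circles female, triangles male, blue control, orange exposed). Exposed female and exposed male replicate 2, both at 29.7%, sit at 192 and 1941 reads for Slc39a4 and at 405 and 588 for Slc30a1.

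In PND42 males no transporter passed, and none of the 13091 genes did (0%; limma, 932 genes or 7.12% at an unadjusted p under 0.05, none of them a transporter). No transporter had groups apart from each other, against 1.73% of genes. Slc39a4 had 2007, 1517, 2185 and 2380 reads in controls and 2279, 1941, 2196 and 1572 in exposed males. These ranges coincided, and the log2 difference was -0.01 with a 95% interval from -0.45 to 0.43. For Slc39a8 it was -0.18 (-0.58 to 0.22), for Slc30a1 -0.31 (-0.78 to 0.15) and for Slc11a2 -0.16 (-0.53 to 0.21). The highest estimate was that of the importer Slc39a10, 0.43 (-0.22 to 1.08), and the lowest that of Slc30a10, -0.37 (-0.88 to 0.14). Leaving out 1 unnumbered male control, which had the highest mitochondrial share among male controls (24.8%), gave 27 called genes, none of them a transporter.

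The difference of the exposure effect between the sexes was tested directly. It passed for 4 of 10 transporters, against 7.91% of 13091 genes, and in each it was higher in males, as in 4.07% of genes. Male minus female, it was 2.0 on the log2 scale for Slc39a4 (SE 0.30, limma adjusted p = 0.00195) and 1.42 for Slc39a8 (SE 0.27, limma adjusted p = 0.00685). It was 1.27 for Slc30a1 (SE 0.31, limma adjusted p = 0.0220) and 0.85 for Slc11a2 (SE 0.25, limma adjusted p = 0.0429). With scaling by total reads Slc11a2 missed the threshold (0.91, limma adjusted p = 0.0748), and the calls over all genes went from 533 higher and 503 lower to 551 and 228. Marker genes differed in this contrast too. Hepatocyte markers had higher values in 7 of 7 (median log2 0.83), with Fgb called, and of the other lists Spp1 (cholangiocyte) and Apoa4 (enterocyte) were called higher. Between exposed and control males the mitochondrial share was 21.3% ± 6.43 against 17.1% ± 6.49, Malat1 and Neat1 were at 14.58 ± 0.53 against 14.25 ± 0.88, and the long genes at 8.11 ± 0.34 against 7.79 ± 0.42 (SD, n = 4), all overlapping, where the female groups were apart. Their part in the difference between the sexes was not tested. Slc30a7, at 0.64, had a limma adjusted p of 0.0650, and the other 5 lay between -0.08 (Slc30a10) and 0.65 (Slc39a10).

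At PND1 no transporter passed, as was the case for all 14059 genes tested (0%; limma, 2039 genes or 14.5% at an unadjusted p under 0.05). Slc39a4 had 483, 554, 575 and 629 reads in controls and 314, 420.3, 496 and 300.3 in exposed females. All but 1 exposed library lay below the controls, at a log2 difference of -0.57 (SE 0.17, limma adjusted p = 0.261). Slc39a8 had 922, 856, 860.2 and 943 reads in controls and 678, 803, 735 and 743 in exposed females. It was the only transporter whose groups did not overlap, as in 7.76% of all genes, with a log2 difference of -0.28 (SE 0.10, limma adjusted p = 0.299).

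Other estimates at PND1 ran from -0.38 for Slc30a1 (95% interval -0.81 to 0.05) to 0.44 for Slc30a10 (-0.02 to 0.90). Slc39a14 was at 0.31 (-0.14 to 0.76). In the authors' deposited table Slc39a4 had a log2 fold change of -0.55 and an adjusted p of 0.0938, where 1.06% of genes with an adjusted p passed. Erythroid markers had higher means in exposed females in 9 of 9 (median log2 0.42) and hepatocyte markers lower means in 6 of 7 (median -0.31), with none called. Over all libraries, as deviations from group means, r with the erythroid level was -0.71 for Slc39a10 and -0.50 for Slc39a14. It was 0.53 for Slc11a2, 0.51 for Slc39a8 and 0.48 for Slc30a1, and from 0.01 (Slc30a10) to 0.22 (Slc39a5) for the rest. With the erythroid level as a covariate, Slc39a10 went from -0.16 to 0.10 and Slc11a2 from 0.16 to -0.06. Slc39a4 was the only transporter besides Slc39a8 with an unadjusted p under 0.05. Over all genes 5 were called without exposed replicate 3 and 1 without exposed replicate 4, none of them a transporter.

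At PND21 no transporter passed either, against 0.0360% (5) of 13886 genes. Slc39a4 had 1328, 1227 and 1122 reads in controls and 738, 696 and 911 in exposed females. The groups did not overlap, and the log2 difference was -0.65 (SE 0.18, limma adjusted p = 0.389). In the authors' deposited table the same gene had a log2 fold change of -0.65 and an adjusted p of 0.0498, among 3.13% of genes that passed there. Groups also did not overlap for Slc39a10, which had 156.1, 175 and 153.7 reads in controls and 192, 214 and 191 in exposed females (log2 0.30, 95% interval -0.16 to 0.76). For Slc30a7 they were apart by little, at 410 to 504 against 334 to 406 (-0.22, -0.63 to 0.19). Of all genes, 16.6% had groups that did not overlap.

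Slc39a8, which was lower in PND42 exposed females, was at -0.01 at PND21 (95% interval -0.73 to 0.71), with 378, 621 and 569 reads in controls and 342, 489 and 787 in exposed females. Slc30a1 was at -0.15 (-1.14 to 0.84) and Slc11a2 at -0.43 (-1.05 to 0.19). These intervals are wide, with 3 libraries a group. Hepatocyte markers had lower means in exposed females in 7 of 7 (median -0.59, none called). Scaling by total reads moved the median gene by 0.23, and Slc39a4 was then at -0.42, 0.64 below it. Over all genes the 5 calls became 0 with exposed 1 or control 3 left out, 1 with control 2 out, 2 with control 1 out, 3 with exposed 2 out and 14 with exposed 3 out, none of them a transporter. The exposure effect did not differ between PND21 and PND1 for any transporter by the limma test (0.0140% of 14259 genes passed; 0 of 10 transporters and 9.07% of genes had an unadjusted p under 0.05), and for Slc39a4 the difference was -0.08 (-0.61 to 0.45). PND42 was not tested against the younger ages.

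Counting may mix some of these genes with neighbours, since the sources used here do not say whether strand was used. Slc39a5 (chr10:128395931-128401229, minus strand) overlaps Ankrd52 on the plus strand, which fell in PND42 exposed females by 0.47. Slc30a1 overlaps the antisense gene 1700034H15Rik, which had 31.2 ± 6.79 reads in PND42 control and 34.9 ± 8.71 in exposed females, against 1184 ± 117 and 397 ± 55.9 for Slc30a1. Slc30a10 (chr1:185454848-185468762, plus strand) overlaps the lincRNA Gm2061 on the other strand, at 83.8 ± 46.3 and 37.6 ± 4.89 reads in those groups. Slc39a8, Slc39a10, Slc30a7 and Slc11a2 also overlap annotated genes, for Slc11a2 the protein-coding Gm5475 on the other strand. None of those neighbours was among the genes measured, so their reads could not be set beside these members. Values of all 7 members named here are uncertain to that extent. Total introns ranged from 1237 bases in Slc30a1, less than in all but 8.66% of genes, to 79214 in Slc39a10. Slc39a4, with 1896 bases, was also among the short.

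In the rest of both families, Slc39a9 was the 1 of 7 ZIP genes measured that fell in PND42 exposed females (log2 -0.46, SE 0.16, limma adjusted p = 0.0262), where 21.4% of all genes fell. With scaling by total reads it missed the threshold (limma adjusted p = 0.0593). Of 4 other ZnT genes none passed in any exposure comparison. With age, all 4 of those rose in controls, where 26.0% of all genes rose: Slc30a3 by 2.27, Slc30a4 by 0.81, Slc30a6 by 0.53 and Slc30a9 by 0.40 on the log2 scale. With scaling by total reads only Slc30a3 of the 4 passed, and Slc30a9 turned to -0.11. Slc39a2 rose by 3.62, from 8.92 ± 4.76 to 111 ± 15.2 reads, and Slc39a6 fell, from 203.6 ± 6.66 to 51.3 ± 12.8 reads.

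Mt1 and Mt2, the zinc- and cadmium-binding metallothioneins, and Mtf1, their regulator, did not pass in any exposure comparison. In PND42 females Mt1 had 5857 ± 6363 reads in controls and 6627 ± 6807 in exposed mice (log2 0.14, SE 1.40), and Mt2 was at -0.53 (SE 1.52). Mtf1 had 574 ± 98.8 and 695 ± 93.8 (0.28, SE 0.19). In PND42 males Mt1 was at 1.65 (SE 1.40), with 524 to 6978 reads in controls and 1706 to 75232 in exposed mice, Mt2 at 1.17 (SE 1.52) and Mtf1 at -0.01. The effect, male minus female, was 1.52 for Mt1 (95% interval -2.64 to 5.67) and 1.70 for Mt2 (-2.81 to 6.21), neither passing. From PND1 to PND21 in controls, Mt1 and Mt2 fell by 1.33 and 1.50 and Mtf1 rose by 0.63; with scaling by total reads Mtf1 was at 0.12 and did not pass.

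Of 7 genes of manganese handling measured, 4 fell and 1 rose in PND42 exposed females, where 21.4% of all genes fell and 18.9% rose. The 3 of lowest p were Trpm7, a channel kinase permeable to divalent metals, at 1.20, Slc40a1, which encodes ferroportin, at -1.50, and Arg1, the manganese enzyme arginase, at -1.19 on the log2 scale. Of 10 genes of endosomal iron uptake, in which Slc11a2 acts, 5 fell and 1 rose in the same comparison. Steap3, an endosomal ferrireductase, was at -1.68 (SE 0.27, limma adjusted p = 0.000168). Ndfip1 and Ndfip2, adaptors that target DMT1 for ubiquitination, were at -1.25 and -0.89. Of 12 acute-phase genes, chosen because inflammation raises Slc39a14, only Orm1 passed (-0.90), while 8 of 12 rose from PND1 to PND21 in controls, where 26.0% of all genes rose, with Orm1 at 7.57 and Il6ra at 2.54. The difference between the sexes in the exposure effect passed for Slc40a1 (1.38), Steap3 (2.04), Trpm7 (-0.99) and Nedd4l (-1.36), against 7.91% of all genes; with scaling by total reads Trpm7 and Nedd4l missed the threshold.

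The genes whose levels ran most like a transporter's were sought by Pearson r over the deviations of the 30 libraries from their group means, among 12795 genes. For Slc39a8 they were Ctnnb1 (0.90) and Sumf1 (0.89), and for Slc30a1 Ppia (0.86) and Vma21 (0.85). For Slc39a14 they were Sh3gl1 (0.85) and Zfp507 (0.82), for Slc11a2 Sumo3 (0.75) and Ube2z (0.74), and for Slc39a4 Nudcd3 (0.75) and Acat2 (0.73). Among the 45 pairs of transporters the median r was 0.07, from -0.57 for Slc39a8 with Slc39a14 to 0.64 for Slc39a8 with Slc30a1.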

How the data were processed

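RNA integrity was at least 7 and reads were single-end, 125 bp, per the labels. Per the submitters' processing notes, the tools were FastQC, STAR and featureCounts and the build was mm10; tool versions and settings are not given in the sources used here. Deposited values are log2 of reads divided by a library size factor, plus 1, as the values show: whole reads came back within 0.1 for 100% of them. The deposited signal column (baseMean) is the authors' mean over 14 libraries for PND1 with PND21 and over 16 for PND42, so PND42 was scaled apart. The authors' deposited score (a test statistic) was not used, and the deposited p-value and fold columns were used only where the authors' table is named. Reads summed over the genes listed were 22.0 to 40.1 M per library, and counting error limits genes with few reads. Reads outside those genes were not available, so mitochondrial shares and the scaling by total reads rest on these sums.

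limma 3.58.1 (R 4.3.3) was fitted to the log2 values with trend and robust both on, for genes with at least 10 normalised reads in as many libraries as the smallest group; the PND42 groups shared 1 fit. The design assumed that counts might be found, in which case another model was named; the values were log2, so limma was used. Folds are on the log2(value + 1) scale. The models were tested on simulated data for the exposure differences in females and for PND21 against PND1 controls. The PND42 male comparison, that between the sexes and the differences of exposure effects were not simulated. The simulated libraries were independent, with 1 spread setting for all genes and no shift in RNA content. Alternatives were voom on the recovered reads, no filter, scaling by total reads or by a trimmed mean of M values, each library left out, a replicate block, 1 sex alone and an erythroid covariate.

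The members and lists were chosen with earlier results of these data known. Named genes were the 10 members in every comparison, up to 3 passing genes of lowest p per list and comparison, Mt1, Mt2 and Mtf1 always, and the 2 genes of highest r for members described in full; marker genes, Ndfip2, Nedd4l, Il6ra and genes that overlap a member were named beside these after their values were seen. Positions and exon lengths are from GENCODE vM21.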

Additional observations from a re-analysis of the deposited data

Results flagged for a closer look

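In 4 transporters the exposure effect at PND42 differed between the sexes by the test of the difference itself. Male minus female it was 2.0 on the log2 scale for Slc39a4, 1.42 for Slc39a8, 1.27 for Slc30a1 and 0.85 for Slc11a2. In 2 groups of libraries 1 value of Slc39a10 stood far from the others: exposed replicate 3 of the PND1 females had 180.5 normalised reads against 136 to 144 in the other 3, and exposed replicate 3 of the PND42 males had 124 against 281 to 288. Chance alone sets 1 in 20 groups apart in this way, and 60 groups of 4 libraries were looked at.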

How the results depend on the processing

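The calls of Slc39a4, Slc39a8, Slc30a1, Slc30a7 and Slc11a2 in PND42 females passed in 15 of 15 alternatives each, and no transporter passed in any alternative at PND1, PND21 or in PND42 males. With 1 library left out, the genes called over the whole table ranged from 0 to 5 at PND1, 0 to 14 at PND21 and 0 to 27 in PND42 males. At PND21 voom called 2 genes in place of 5. The difference of the exposure effect between PND21 and PND1 gave 0 genes with voom and 4 with scaling by total reads, in place of 2. Scaling by total reads called 8 transporters between PND21 and PND1 controls in place of 5, and 5 transporters and 2110 genes between the sexes in controls in place of 3 and 907. Some estimates changed sign. Under both other scalings this came with a shift of all genes alike, since relative to the median gene no transporter's estimate moved by more than 0.01 after rounding. With scaling by total reads, Slc39a8 (0.23), Slc39a14 (0.22), Slc30a1 (0.09) and Slc30a7 (0.01) did so at PND21, Slc39a4 (0.09), Slc39a5 (0.04) and Slc30a7 (0.02) in PND42 males, Slc30a5 (-0.47) and Slc30a7 (-0.37) with age, Slc30a5 (-0.06) between the sexes, and Slc39a4 (0.10) and Slc30a7 (0.14) in the difference between ages. With the trimmed mean of M values, Slc39a8 and Slc39a14 were both at 0.02 at PND21 and Slc39a4 at 0.02 in PND42 males. For the remaining sign changes the cause was not tested. With the erythroid covariate, Slc39a10 (0.10) and Slc11a2 (-0.06) changed sign at PND1 and Slc39a8 (0.12) at PND21. With 1 library left out, the estimates that changed sign at least once ranged as follows. At PND1 Slc39a10 ranged from -0.43 to 0.03. At PND21 Slc39a8 ranged from -0.32 to 0.28, Slc30a1 from -0.50 to 0.28, Slc39a5 from -0.00 to 0.75, Slc39a14 from -0.26 to 0.30 and Slc30a10 from -0.22 to 0.52. In PND42 females Slc39a5 ranged from -0.42 to 0.04 and Slc39a14 from -0.19 to 0.01, and in PND42 males Slc39a5 from -0.37 to 0.29, Slc30a5 from -0.28 to 0.01 and Slc39a4 from -0.14 to 0.10. With age Slc39a10 ranged from -0.30 to 0.15, Slc30a5 from -0.03 to 0.19 and Slc11a2 from -0.20 to 0.02.

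Libraries with the same replicate number had correlations of -0.07 to 0.12 at PND1, -0.04 to 0.23 at PND21, -0.08 to 0.07 in PND42 females and -0.05 to 0.15 across ages. Sample tags also begin with numbers, some of which recur in groups compared here. Whether those mark litters is not stated, and they were not used in any fit. With the replicate block, 8 genes were called at PND21 in place of 5, none of them a transporter. In PND42 females the block left out the libraries without a shared number; Slc30a5 then missed the threshold (-0.34, limma adjusted p = 0.232) and Slc39a14 was at 0.03, as it was in the same libraries without the block, a setting added after seeing the data. The block changed no other transporter's call. PND42 males had no fit with the block, since fewer than 2 numbers occur in both of their groups.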
